A study of Mus musculus with 9 samples.

Results

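The genes described here are 10 genes of the eye lens that were measured in RNA from mouse retinal ganglion cells (RGCs). They were the alpha crystallins Cryaa and Cryab, the beta crystallins Cryba1, Cryba2, Cryba4, Crybb1, Crybb2 and Crybb3, the gamma crystallin Crygs, and Lim2, a membrane protein of lens fibre cells. They were chosen by symbol out of 23997 gene symbols in each library, all 10 were listed in all 9 libraries, and the choice was made on the values of these same libraries. Their differences between groups are therefore a description, and no p-value is given for them.

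RGCs are the neurons whose axons form the optic nerve. C57BL/6J mice received an injection into the anterior chamber of the eye, and cells were collected 2 weeks later, at 8 weeks of age according to the labels. Control eyes received saline, whereas Mild IOP and Moderate IOP eyes received microbeads, which raise intraocular pressure (IOP) by hindering the outflow of fluid, and were assigned to Mild or Moderate by the size of the rise. RGCs were taken from dissociated retinas by immunopanning, which removed other cells on plates coated with a lectin or antibodies and then retained cells carrying Thy1.2. The methods state that animals with a clouded lens were left out. RNA was combined into 1 pool per group and split into 3 libraries, so all 9 libraries came from 3 pools. According to the methods, the Moderate IOP pool held fewer retinas than the Control and Mild IOP pools. The spread between libraries is technical, and differences between groups cannot be told apart from differences between pools. Depth, derived from the width of the confidence intervals, was 7120000, 8910000 and 5080000 fragments in Control replicates 1, 2 and 3. It was 6810000, 6620000 and 5390000 in Mild IOP and 5050000, 8640000 and 5980000 in Moderate IOP.

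Crystallins are the abundant soluble proteins that give the lens its transparency and refractive power. Alpha crystallins belong to the small heat shock proteins and act as chaperones, and Cryab is also made in many tissues outside the lens. Beta and gamma crystallins share a fold built of Greek key motifs and are mainly structural, and transcripts of several beta crystallins are known from the retina. In the lens their transcription is driven by factors such as Pax6, Maf, Sox1 and Prox1, and Maf proteins bind elements that contain the half-site TGCTGA.

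The 10 genes lay on 7 chromosomes. Of these, 4 lay on chromosome 5, where Cryba4 and Crybb1 were transcribed away from each other with 3296 bases between them, and Crybb2 and Crybb3 lay in the same orientation with 5721 bases between them. The 250 bases before the annotated start were taken from RefSeq (build GRCm38.p6) for 9 of the 10 genes. The 5 printed here are examples from the alpha, beta and gamma crystallins that hold the half-site, chosen to show these letters and not by the size of a difference. Capitals mark TGCTGA or its complement TCAGCA, and TATAAA or its complement, a TATA box.
Cryaa, chr17:31677681-31677930, plus strand: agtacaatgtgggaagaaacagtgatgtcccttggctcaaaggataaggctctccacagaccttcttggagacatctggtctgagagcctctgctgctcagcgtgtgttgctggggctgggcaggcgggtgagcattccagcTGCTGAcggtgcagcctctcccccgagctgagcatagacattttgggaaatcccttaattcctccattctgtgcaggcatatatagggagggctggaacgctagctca
Cryba1, chr11:77725294-77725543, minus strand: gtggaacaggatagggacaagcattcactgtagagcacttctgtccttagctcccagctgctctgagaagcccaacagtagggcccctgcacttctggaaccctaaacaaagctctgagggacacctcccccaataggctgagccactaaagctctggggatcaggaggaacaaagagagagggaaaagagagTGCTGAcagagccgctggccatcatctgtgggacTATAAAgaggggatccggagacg
Cryba4, chr5:112252519-112252768, minus strand: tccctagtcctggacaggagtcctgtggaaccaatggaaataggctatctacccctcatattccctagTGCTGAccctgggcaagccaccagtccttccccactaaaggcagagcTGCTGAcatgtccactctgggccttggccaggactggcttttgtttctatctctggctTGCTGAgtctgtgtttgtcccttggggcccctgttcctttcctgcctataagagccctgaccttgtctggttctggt
Crybb1, chr5:112255570-112255819, plus strand: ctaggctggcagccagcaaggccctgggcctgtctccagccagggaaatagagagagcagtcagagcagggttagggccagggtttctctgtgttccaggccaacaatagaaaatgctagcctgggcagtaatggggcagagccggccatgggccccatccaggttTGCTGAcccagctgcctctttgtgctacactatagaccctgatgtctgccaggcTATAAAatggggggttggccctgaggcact
Crygs, chr16:22811411-22811660, minus strand: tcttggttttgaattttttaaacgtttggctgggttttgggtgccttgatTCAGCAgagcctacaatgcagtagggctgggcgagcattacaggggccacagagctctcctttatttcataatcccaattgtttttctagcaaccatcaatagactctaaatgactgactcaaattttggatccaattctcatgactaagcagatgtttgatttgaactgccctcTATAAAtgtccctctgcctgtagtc

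On either strand, TGCTGA was found upstream of 8 of the 9 genes, all but Crybb2, and in 16.1% of 32851 RefSeq promoter windows of the same length. Cryba4 held it 3 times, 182, 135 and 77 bases before the start. TATAAA was found upstream of 3 genes, Cryba1, Crybb1 and Crygs, between 30 and 23 bases before the start, and in 12.4% of all windows. The heat shock element core GAANNTTC was found upstream of 0 of the 9 genes and in 6.69% of all windows. The start that RefSeq gives for Crybb2 lay outside the locus in the deposited tables. A match is a description of the letters, not of a bound site.

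**Figure D1:**
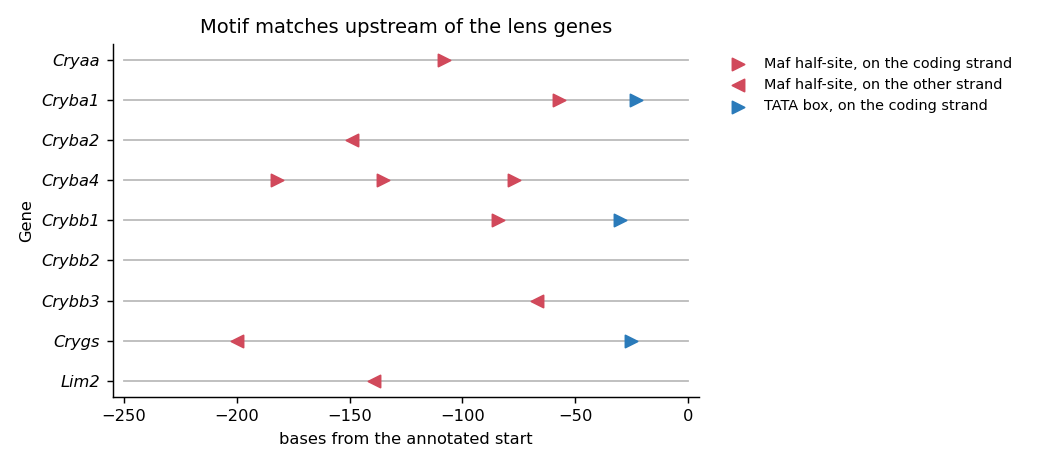
Position of the Maf half-site (red) and the TATA box (blue) in the 250 bases before the annotated start of 9 lens genes, with the distance from the start in bases on the horizontal axis and 1 line per gene. Arrowheads point right for a match on the coding strand and left for one on the other strand. A half-site is present in 8 of 9 lines, and the 3 TATA boxes lie within 30 bases of the start.

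In saline-injected Control, all 10 lens genes were present in the RGC libraries. Whether these transcripts came from the RGCs or from other cells in the preparation, lens cells included, was not tested. Values are FPKM, fragments per length of transcript relative to the mapped fragments of the library, which the authors estimated with cufflinks and which were divided here by a median-of-ratios factor per library (scaled FPKM). Summed over the 10 genes, Control replicates 1, 2 and 3 held 417.2, 453.0 and 375.4 scaled FPKM. Mild IOP replicates held 13.48, 13.15 and 14.19, and Moderate IOP replicates held 33.83, 15.85 and 28.17. Every IOP library lay far below every Control library, and the lowest Moderate IOP library lay above the highest Mild IOP library. As a share of all FPKM in the library, the sum was between 0.0678% and 0.0801% in Control, between 0.00236% and 0.00277% in Mild IOP, and between 0.00273% and 0.00554% in Moderate IOP. In RNA from pooled cells, fewer cells of a type and less RNA per cell cannot be told apart.

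The retinal identity of the libraries was checked with marker genes. All 7 RGC markers (Rbpms, Pou4f1, Pou4f2, Sncg, Nefl, Thy1 and Slc17a6) were above 0 in all 9 libraries. Sncg, gamma synuclein, was the most abundant, at 855, 931 and 948 scaled FPKM in Control. Genes used by all cells, such as Actb and Gapdh, were listed at 0 in 0 libraries.

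Among the alpha crystallins, Cryaa, which is largely restricted to the lens, was the most abundant of the 10 genes in Control. It had 130, 113 and 92.8 scaled FPKM in the Control replicates, from 681.1, 741.8 and 375.4 derived fragments. It had 1.2, 0.457 and 0.394 in Mild IOP, from at most 6 fragments in a library, and was listed at 0 in all Moderate IOP replicates. At 3 fragments those Moderate IOP libraries would have read between 0.48 and 0.822 FPKM. The groups did not overlap, and the difference on the log2(scaled FPKM + 1) scale was −6.08 for Mild IOP (standard error 0.24) and −6.80 for Moderate IOP (standard error 0.24).

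Cryab, the alpha crystallin also made outside the lens, kept far more of its Control level. It had 31.5, 25.6 and 21.7 scaled FPKM in Control, 3.88, 3.72 and 5.33 in Mild IOP, and 17.2, 6.79 and 17.1 in Moderate IOP. Moderate IOP replicate 2 stood below the other replicates of its group, yet all Moderate IOP values lay above all Mild IOP values and below all Control values. The log2 difference from Control was −2.36 for Mild IOP and −0.98 for Moderate IOP (standard error 0.31 each), and Moderate IOP lay 1.38 above Mild IOP on that scale. The locus of Hspb2, a neighbouring small heat shock protein gene, overlapped that of Cryab and was listed at 0 in all 9 libraries.

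The beta crystallins, which form oligomers in the lens, were all lower in the IOP libraries than in Control. Among them only Crybb3 was above 0 in all 6 IOP libraries. Cryba1 had 50.6, 89.6 and 47.2 scaled FPKM in Control and was listed at 0 in all 6 IOP libraries, where 3 fragments would have read between 0.767 and 1.31 FPKM. Its log2 difference was −5.93 in both comparisons (standard error 0.27). Cryba2 had 31.7, 25.1 and 16.3 in Control and 1 derived fragment in 1 of 6 IOP libraries, Mild IOP replicate 1. Its log2 difference was −4.49 for Mild IOP and −4.62 for Moderate IOP (standard error 0.28).

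Crybb2, a beta crystallin also known from the retina, had 59.2, 63.4 and 74.2 scaled FPKM in Control. It had 0.87, 1.74 and 0 in Mild IOP and 5.0, 0 and 1.68 in Moderate IOP, so that the IOP groups overlapped each other but not Control. The log2 difference was −5.26 for Mild IOP and −4.71 for Moderate IOP (standard error 0.55). Cryba4 had 12.1, 17.2 and 6.69 in Control, 0.545, 0 and 2.18 in Mild IOP, and 0.392, 0.208 and 0 in Moderate IOP, with at most 6 fragments in an IOP library. Its log2 difference was −2.85 for Mild IOP and −3.36 for Moderate IOP (standard error 0.43). Crybb1, the divergent neighbour of Cryba4, had 9.89, 11.8 and 15.8 in Control and 1.08, 0.871 and 2.0 in Mild IOP, and was listed at 0 in the Moderate IOP libraries. Its log2 difference was −2.55 for Mild IOP and −3.73 for Moderate IOP (standard error 0.27).

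Crybb3 was the beta crystallin with the highest level in both IOP groups. It had 16.3, 28.5 and 25.4 scaled FPKM in Control, 5.61, 6.36 and 4.3 in Mild IOP, and 11.3, 8.85 and 9.42 in Moderate IOP. The 3 groups did not overlap, with Moderate IOP between Mild IOP and Control. The log2 difference from Control was −1.90 for Mild IOP and −1.14 for Moderate IOP (standard error 0.23), and Moderate IOP lay 0.76 above Mild IOP.

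Crygs, a gamma crystallin of the outer lens fibres, had 71.3, 76.6 and 72.4 scaled FPKM in Control and was listed at 0 in all 6 IOP libraries. Its Control mean was 73.4 ± 2.79 (SD, n = 3), the narrowest relative spread of the 10 genes, and its log2 difference was −6.22 in both comparisons (standard error 0.2). Lim2, which helps to join lens fibre cells, was the least abundant, with 4.59, 2.69 and 3.01 in Control from 22, 16 and 9.6 fragments. It was listed at 0 in all 6 IOP libraries, where 3 fragments would have read between 0.532 and 0.911 FPKM, so a level a few times below Control was not detectable at this depth. Its log2 difference was −2.12 in both comparisons (standard error 0.27).

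**Figure D2:**
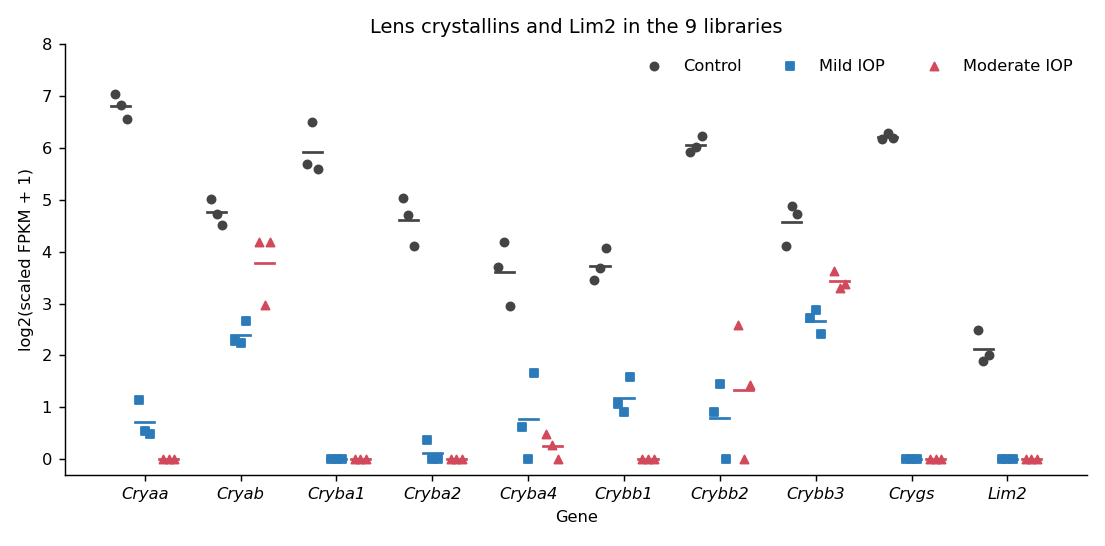
Level of the 10 lens genes as log2(scaled FPKM + 1) on the vertical axis, with 1 point per library and a line at the mean of 3 libraries (Control grey circles, Mild IOP blue squares, Moderate IOP red triangles). Control points lie above all IOP points in each of the 10 genes. Cryab and Crybb3 are the 2 genes above 0 in all 6 IOP libraries.

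Across genes, Control exceeded every Mild IOP library in 10 of 10 and every Moderate IOP library in 10 of 10. Of 13043 tested genes, 9.13% had every Mild IOP library below every Control library, and 9.48% had every Moderate IOP library below. With a call defined as an adjusted p (FDR) under 0.1 together with a 1.5-fold difference or more, 10 of 10 genes were lower in Mild IOP, against 0.383% of 13043 tested genes. In Moderate IOP 9 of 10 were lower, all but Cryab, against 0.79% of tested genes. Because the 10 genes were chosen on these contrasts, nothing is read from these counts. The median log2 difference of the 10 genes was −3.67 for Mild IOP and −4.17 for Moderate IOP, whereas that of all tested genes was 0.006 and 0.004. All 10 passed the filter on low values, a mean of at least 0.5 scaled FPKM over 9 libraries, but by the IOP libraries alone 5 would have passed. Both comparisons used the same Control libraries, so they are not independent of each other.

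**Figure D3:**
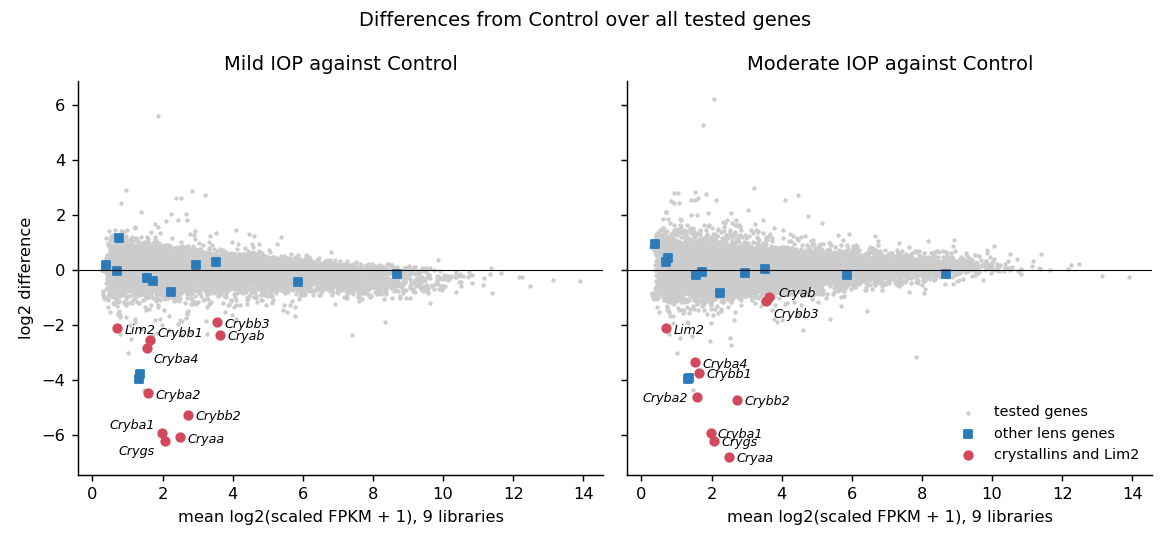
Log2 difference from Control (vertical axis) against the mean log2(scaled FPKM + 1) over 9 libraries (horizontal axis) for 13043 tested genes (grey), for Mild IOP on the left and Moderate IOP on the right. The 10 lens genes (red, named) lie between −6.80 and −0.98, and the 12 tested other lens genes (blue) lie closer to 0 except Crygb and Crygc, whose points nearly coincide near −4.

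The order of the levels, which FPKM gives per length of transcript, differed between Control and IOP. In Control, Cryaa stood apart at 112 ± 18.6 scaled FPKM (SD, n = 3). Crygs, Crybb2 at 65.6 ± 7.72 and Cryba1 at 62.5 ± 23.5 followed, and neighbours in that order overlapped. Next came Cryab at 26.3 ± 4.96, Cryba2 at 24.4 ± 7.7 and Crybb3 at 23.4 ± 6.33, which also overlapped, then Crybb1 at 12.5 ± 3.0 and Cryba4 at 12.0 ± 5.23, and Lim2 at 3.43 ± 1.01. In Mild IOP, Crybb3 at 5.42 ± 1.05 and Cryab at 4.31 ± 0.884 overlapped and stood above the other 8. In Moderate IOP, Cryab at 13.7 ± 5.96 and Crybb3 at 9.84 ± 1.26 overlapped and stood above the other 8, of which 6 were at 0 in all 3 libraries. Cryab and Crybb3 together made up between 11.5% and 12.5% of the 10 genes' sum in Control, between 67.8% and 76.7% in Mild IOP, and between 84.1% and 98.6% in Moderate IOP. Of the 60 values of these genes in IOP libraries, 33 were listed at 0.

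**Figure D4:**
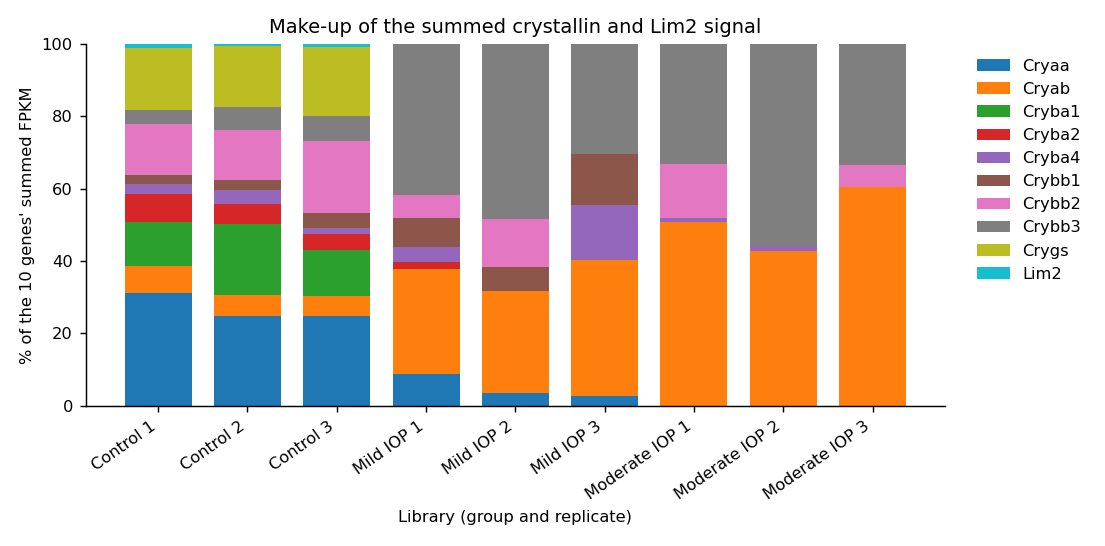
Share of each of the 10 lens genes in their summed FPKM (vertical axis, percent) for each of the 9 libraries (horizontal axis). Control bars are mixed, with Cryaa between 24.7% and 31.2%, whereas Cryab (orange) and Crybb3 (grey) fill between 67.8% and 98.6% of the IOP bars.

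The genes also varied among themselves within Control, although the Control libraries came from the same pool. The coefficient of variation over 3 Control libraries ranged from 3.8% for Crygs to 43.6% for Cryba4, where counting error alone would give 6.52% and 16.5%. In 5 genes (Cryaa, Cryba1, Cryba2, Cryba4 and Crybb3) the cufflinks confidence intervals of the highest and lowest Control library did not overlap. The highest Control value was in replicate 1 for 4 genes, in replicate 2 for 4 and in replicate 3 for 2, so no single Control library carried the signal. In their coding sequences, no 2 of the 10 genes shared a run of more than 22 identical bases, the longest being that between Cryaa and Cryab.

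Of the gamma crystallins outside the 10 genes, the close relatives Crygb and Crygc were lower in both IOP groups. Both passed the filter on low values only through Control, where they were high, so their differences are given without a test. Crygc had 15.9, 23.2 and 7.95 scaled FPKM in Control, 0, 0.369 and 0 in Mild IOP, and was listed at 0 in Moderate IOP. The log2 difference was −3.80 in Mild IOP (standard error 0.35) and −3.95 in Moderate IOP. Crygb had 6.79, 40.7 and 10.3 in Control, with replicate 2 above the others, and was listed at 0 in all 6 IOP libraries. Its log2 difference was −3.95 in both (standard error 0.5). The coding sequences of Crygb and Crygc share a run of 221 identical bases, so the division of fragments between them is uncertain.

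The other gamma genes had too few fragments to compare. Cryga was listed at 0 in Control and had 22 fragments (6.26 scaled FPKM) in Moderate IOP replicate 2 and 1 fragment in Mild IOP replicate 3. Crygd had 4 fragments in Control replicate 2, Crygn had 5 in Control replicate 3, and Cryge and Crygf were listed at 0 in all 9 libraries.

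Other genes that mark the lens were mostly too low to compare. Of 28 on the list (7 gamma crystallins, 13 genes of lens fibres and 8 transcription factors), 12 passed the filter, and 4 of these (Cryga, Crygb, Crygc and Caprin2) passed only through the group in which they were high, so they are given as values. The list was drawn up with earlier results of these data known. For the remaining 8 (Bfsp1, Lenep, Tdrd7, Pax6, Prox1, Maf, Hsf4 and Six3) the log2 difference from Control lay between −0.81 and 0.30 for Mild IOP and between −0.82 and 0.29 for Moderate IOP. By limma 0 of the 8 were called against Control, where 0.383% of all tested genes were lower and 0.00767% higher for Mild IOP, and 0.79% lower and 0.905% higher for Moderate IOP, so that 0 of 8 is near the background. At an unadjusted p under 0.05, 1 of the 8 (Six3) differed from Control for Mild and 0 for Moderate IOP, against 10.2% and 15.3% of all tested genes. Caprin2, an RNA-binding protein gene named, like Six3, after its values were seen, had 0.0379, 0.0898 and 0.381 scaled FPKM in Control, 1.3, 1.8 and 1.73 in Mild IOP, and 0.9, 0.504 and 0.376 in Moderate IOP. Mip, the aquaporin that is the main membrane protein of lens fibres, had 0.933, 0 and 1.05 scaled FPKM in Control and was listed at 0 in all 6 IOP libraries. The lens transcription factors Foxe3 and Sox1 were listed at 0 in all 9 libraries. Among fibre genes, Tdrd7, an RNA granule protein, was the most abundant, at 8.93, 7.05 and 4.51 in Control, 8.38, 7.18 and 7.38 in Mild IOP, and 4.43, 4.76 and 10.7 in Moderate IOP, with overlap throughout. Lenep, also named after its values were seen, had 5.59, 4.57 and 8.08 in Control and 6.97, 2.32 and 1.33 in Mild IOP. In Moderate IOP it had 2.86, 2.24 and 3.83, all below Control, as in 9.48% of all tested genes. It did not pass the test against Control (limma FDR = 0.55 for Mild and 0.37 for Moderate IOP). Pax6, which is also active in RGCs and amacrine cells, was the most abundant transcription factor, at 425, 413 and 477 in Control and between 381 and 425 in the IOP libraries.

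Other genes that carry the crystallin name are enzymes and the Crybg genes with beta-gamma crystallin domains. Of 7 such genes, 4 were tested, and 0 were lower and 0 higher by limma in any comparison, which is near the background of at most 5.8% of all tested genes. At an unadjusted p under 0.05, 0 of 4 differed from Control for Mild and 1 for Moderate IOP, and 2 differed between the IOP groups, against 10.2%, 15.3% and 21.8% of all tested genes. Cryzl1, related to quinone oxidoreductases, was the most abundant, at 38.8, 49.0 and 49.7 scaled FPKM in Control, between 43.0 and 55.6 in Mild IOP and between 44.5 and 63.2 in Moderate IOP.

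Small heat shock proteins other than the alpha crystallins were also followed, since Cryab belongs to that family. Of 7, 4 were tested, and 0 passed the limma test against Control, near the background of at most 0.905% of all tested genes. At an unadjusted limma p under 0.05, 0 of 4 differed from Control in Mild IOP, against 10.2% of all tested genes. In Moderate IOP 1 of 4 did, against 15.3%. Between Moderate and Mild IOP 3 of 4 were higher in Moderate IOP, where 5.8% of all tested genes were higher, and the list's median log2 difference was 0.77 against −0.016 over all tested genes. Hspb1 had 21.7, 17.2 and 12.5 scaled FPKM in Mild IOP and 40.7, 36.0 and 27.2 in Moderate IOP, a log2 difference of 0.99 (standard error 0.31, limma FDR = 0.088). Hspb6, the most abundant, had 23.3, 22.3 and 20.3 in Mild IOP and 39.1, 37.7 and 28.1 in Moderate IOP, a log2 difference of 0.63 (standard error 0.18, limma FDR = 0.068). Hspb8 had 10.8, 6.31 and 9.23 in Mild IOP and 16.1, 16.1 and 19.3 in Moderate IOP, a log2 difference of 0.91 (standard error 0.28, limma FDR = 0.083). The Moderate IOP libraries lay above the Mild IOP libraries in all 3, which held for 14.5% of all tested genes. Control values overlapped both IOP groups for Hspb1 (14.3, 26.0 and 36.3) and Hspb6 (28.7, 33.8 and 22.8), and Mild IOP for Hspb8 (5.5, 8.09 and 12.9). With 1 library left out in turn, the call was made in 3 of 9 fits for Hspb1 (limma FDR up to 0.21), 4 of 9 for Hspb6 (up to 0.18) and 2 of 9 for Hspb8 (up to 0.28). With no scaling factor or no filter on low values it ended in all 3, with upper-quartile factors for Hspb1 and Hspb6, with the replicate block for Hspb1, and with a pseudocount of 5 for Hspb6. Leaving out Mild IOP replicate 1, 2 or 3, or Moderate IOP replicate 1 or 2, ended the call in all 3 genes. Leaving out Control replicate 2 ended it for Hspb1 and Hspb8, and Moderate IOP replicate 3 for Hspb8.

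The genes next to the lens genes in the genome were also read. Of 16 genes lying nearest on either side of the 10, 11 were tested. By limma 0 were lower or higher in either IOP group against Control, near the background of at most 0.905% of all tested genes. The median log2 difference was −0.02 for Mild IOP and −0.15 for Moderate IOP. At an unadjusted limma p under 0.05, 2 of 11 differed from Control for Mild IOP, against 10.2% of all tested genes. For Moderate IOP 1 of 11 did, against 15.3%. Tpst2, a protein tyrosine sulfotransferase gene next to Crybb1, had 16.8, 17.6 and 17.0 scaled FPKM in Control, 19.3, 11.1 and 15.2 in Mild IOP, and 13.0, 19.6 and 7.71 in Moderate IOP. U2af1, a splicing factor gene next to Cryaa, had 76.1, 82.6 and 72.7 in Control, between 45.1 and 59.9 in Mild IOP and between 49.6 and 68.7 in Moderate IOP. It did not pass the test (limma FDR = 0.2 and 0.22). Every Control value lay above every IOP value, as in 9.13% of all tested genes for Mild and 9.48% for Moderate IOP. Between Moderate and Mild IOP 1 of 11 was higher, against 5.8% of all tested genes. It was 1110032A03Rik, next to Cryab, which had 18.5, 14.6 and 21.1 in Mild IOP and 33.0, 26.3 and 24.0 in Moderate IOP, a log2 difference of 0.60 (standard error 0.18, limma FDR = 0.084). That call was made in 3 of 9 fits with 1 library left out (limma FDR up to 0.29) and in 3 of 9 other settings. It ended without replicate 1 or 2 of any group.

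Markers of other eye cells were read in the same libraries, because they could have moved with the lens genes. Rod photoreceptor markers were also highest in Control. Their 6 genes summed to 631, 578 and 499 scaled FPKM in Control, 391, 318 and 398 in Mild IOP and 368, 359 and 388 in Moderate IOP, and 0 of 6 were at 0 in all libraries. Sag, rod arrestin, the most abundant in Control, had 177, 164 and 148 in Control, 90.8, 83.4 and 111 in Mild IOP, and 89.1, 103 and 102 in Moderate IOP, without overlap with Control. All libraries also lay below Control in 9.13% of all tested genes for Mild and 9.48% for Moderate IOP. In Mild IOP 1 of 6 passed the test, against 0.383% of all tested genes, namely Sag, which fell by 0.78 in log2 (limma FDR = 0.063). In Moderate IOP 3 of 6 fell, against 0.79% of all tested genes, among them Sag by 0.73 (FDR = 0.041) and Pde6b, a rod phosphodiesterase subunit, by 0.81 (FDR = 0.073, limma). With 1 library left out in turn, Sag was called in 3 of 9 fits in Mild IOP and 6 of 9 in Moderate IOP, and Pde6b in 3 of 9. The list's median log2 difference was −0.56 for Mild and −0.66 for Moderate IOP, and 5 of 6 had an unadjusted p under 0.05 in each comparison with Control, against 10.2% of all tested genes for Mild and 15.3% for Moderate IOP. Their part in the lens gene differences was not tested.

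Markers of tissues near the lens were at or near 0. Rpe65 (retinal pigment epithelium), Krt5 and Krt14 (corneal and conjunctival epithelium) and Cldn5 and Cdh5 (endothelium) were listed at 0 in all 9 libraries. The third endothelial marker, Pecam1, had 1.19 scaled FPKM in Control replicate 2 and 0.478 in Mild IOP replicate 2 and was listed at 0 in the other libraries. Summed levels of the 4 corneal markers were 0, 0.424 and 1.22 scaled FPKM in Control and at most 2.46 in an IOP library. Aldh3a1 was the most abundant of them over all libraries and Krt12 in Moderate IOP, at 0.117, 0.391 and 1.76. Of the 4 pigment epithelium markers, Rgr, the most abundant, had 1.8, 0 and 1.81 in Control and was listed at 0 in all 6 IOP libraries, and the list summed to at most 1.14 in an IOP library. The part of these markers in the lens gene differences was not tested.

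Markers of other retinal cells were also called between groups. Of all tested genes, 0.905% were higher and 0.79% lower in Moderate IOP than in Control, and 5.8% were higher and 2.35% lower in Moderate than in Mild IOP. In Moderate IOP, RGC markers summed to 2380, 2230 and 2230 scaled FPKM, against 1410, 1490 and 1460 in Control and 1270, 1030 and 1270 in Mild IOP. Most of these sums came from Sncg and Nefl, with means of 911 and 343 in Control and 1390 and 537 in Moderate IOP. Pou4f2 was the 1 RGC marker lower in Moderate IOP than in Control, with a log2 difference of −0.1. Of 7 RGC markers, Nefl, a neurofilament gene, rose by 0.65 in log2 in Moderate IOP against Control (limma FDR = 0.011). Sncg rose by 0.61 (limma FDR = 0.071). With 1 library left out, Sncg was called in 3 of 9 fits there and Nefl in 9 of 9. In Mild IOP 0 passed, where 0.383% of all tested genes were lower and 0.00767% higher. At an unadjusted limma p under 0.05, 5 of 7 differed from Control for Moderate IOP, against 15.3% of all tested genes. For Mild IOP 1 of 7 did, against 10.2%. Between Moderate and Mild IOP, 4 of 7 were higher in Moderate IOP: Sncg (1.13, FDR = 0.004), Pou4f1 (0.92, FDR = 0.017), Thy1 (1.05, FDR = 0.018) and Rbpms (1.26, FDR = 0.036, limma). The Rbpms call ended without replicate 2 of Mild or of Moderate IOP (limma FDR up to 0.13). Among amacrine markers, Slc6a9, a glycine transporter, had 118, 111 and 101 in Control, 149, 148 and 142 in Mild IOP and 46.5, 38.8 and 32.6 in Moderate IOP. Its log2 difference in Moderate IOP was −1.48 from Control (limma FDR = 0.00062) and −1.88 from Mild IOP (limma FDR = 0.00022), and Gad1 was the most abundant. Slc6a9 was the only 1 of 4 tested amacrine markers that was called in these 2 comparisons. In Moderate IOP against Control, the log2 difference was 0.06 for Tfap2b, 0.29 for Slc32a1 and −0.38 for Gad1. Among 5 Müller glia markers, Apoe (0.68, FDR = 0.06) and Rlbp1 (1.43, limma FDR = 0.068) were higher in Moderate IOP than in Control, Apoe and Glul were higher in Moderate than in Mild IOP (0.63 and 0.96, FDR = 0.029 and 0.012), and Dkk3 was the most abundant. Against Control, Apoe was called in 3 of 9 fits with 1 library left out and Rlbp1 in 4 of 9. Between the IOP groups, the Apoe call ended without replicate 2 of either, with no scaling factor and with upper-quartile factors. Pcp2, the most abundant of 4 bipolar cell markers, was higher in Moderate than in Mild IOP (1.03, limma FDR = 0.028). In the astrocyte list (3 tested, Aqp4 most abundant) and the microglia list (4 tested, C1qb most abundant), 0 genes passed by limma in any comparison. At an unadjusted limma p under 0.05, 2 of 3 astrocyte and 1 of 4 microglia genes differed between the IOP groups, against 21.8% of all tested genes. For Moderate IOP against Control, 0 of 3 and 1 of 4 (C1qb) did, against 15.3%. For Mild IOP against Control, 0 of 3 and 0 of 4 did, against 10.2%. The part of these markers in the level of Cryab and Crybb3 in Moderate IOP was not tested.

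**Figure D5:**
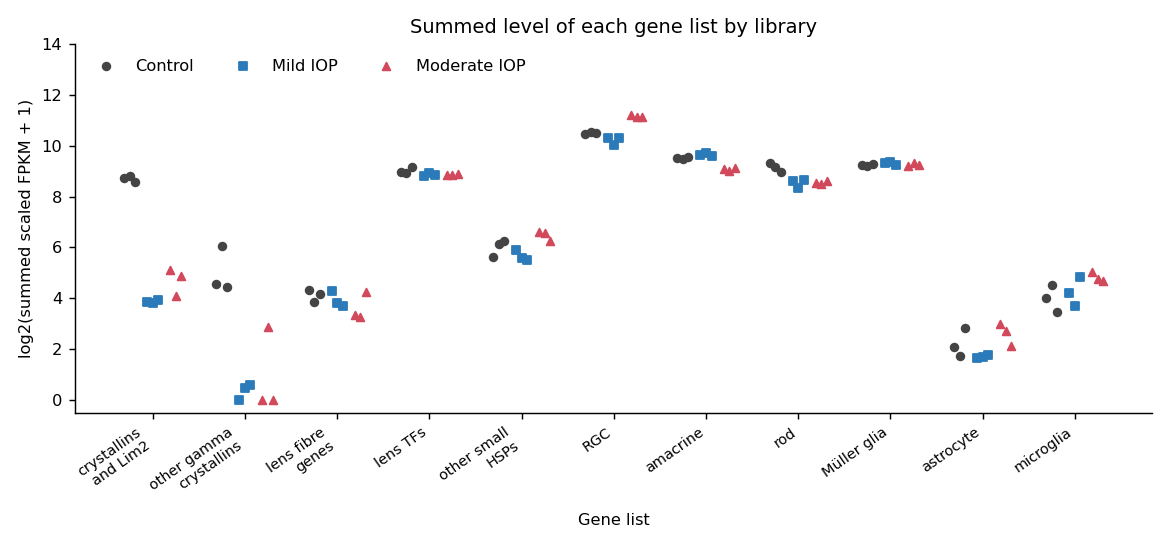
Summed level of each gene list as log2(summed scaled FPKM + 1) on the vertical axis, with 1 point per library (Control grey circles, Mild IOP blue squares, Moderate IOP red triangles). The 10 lens genes drop from between 375.4 and 453.0 in Control to between 13.15 and 33.83 in IOP. Rod marker sums are also lower in IOP, with means of 569 in Control, 369 in Mild and 372 in Moderate IOP. RGC marker sums have means of 1450, 1190 and 2280 in the same order and consist mostly of Sncg and Nefl (means 911 and 343 in Control). Müller glia marker sums, between 589 and 654, overlap between all groups but consist mostly of Dkk3 (mean 485 of 600 in Control).

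By correlation over the 9 libraries, the genes most like the mean standardised profile of the 10 lens genes included Crygc (Pearson r = 0.98), Sesn2 (0.977), Crygb (0.956), Stc1 (0.95), Hapln3 (0.948), Zadh2 (0.941) and Phgdh (0.94). They were picked for this likeness out of all tested genes, the 9 libraries came from 3 pools, and the values are a description. Sesn2, a stress-induced sestrin, had 30.0, 31.3 and 33.4 scaled FPKM in Control and between 21.9 and 23.2 in the IOP libraries. Phgdh, the first enzyme of serine synthesis, had 44.1, 47.1 and 40.9 in Control and between 18.5 and 25.5 in IOP, and Stc1, the secreted glycoprotein stanniocalcin, had 34.6, 36.2 and 36.4 and between 20.0 and 25.2. Hapln3, a link protein of the extracellular matrix, had 3.75, 1.96 and 2.16 in Control and at most 0.642 in IOP. Zadh2, a reductase, had 3.07, 2.78 and 2.3 in Control and between 0.919 and 1.5 in IOP. Among the 10 genes themselves, r with that profile ranged from 0.807 for Cryab to 0.996 for Crygs.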

How the data were processed

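RGC RNA of each group was pooled, split into 3 libraries (SMART-seq v4, oligo-dT priming) and sequenced from both ends. The authors aligned reads to mm10 and estimated expression with cufflinks. The submitters' processing notes name FastQC, Trimmomatic, TopHat2, Cufflinks and Cuffdiff. The deposited values are FPKM per locus, normalized by the authors within each library, with a confidence interval. Fragments were derived here from FPKM and the upper bound, taken as 2 SD of a count, and depth from genes with 1 transcript of at least 2000 nt in GENCODE M21. Limits from derived fragments cover counting error only.

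FPKM were added up over loci that share a symbol. Libraries were divided by median-of-ratios factors (0.983 to 1.058), and log2 was taken after a pseudocount of 1. Genes with a mean of at least 0.5 scaled FPKM (13043 of 23997) entered a limma fit (limma 3.58.1, R 4.3.3) of group means over 9 libraries, with a variance trend and Benjamini-Hochberg adjustment. Genes with failed estimates were left out. Values of some genes are not reported here. A call was an FDR below 0.1 with a log2 difference of at least 0.5849. As replicates were splits of 1 pool per group, p-values cover technical variation, not animals. Log2 differences of genes at or near 0 depend on the pseudocount. On simulated data for Mild IOP against Control with 13043 genes, 73 of 100 genes changed by log2 1 and 98 of 100 changed by log2 2 were recovered, with 9 false calls. The changed genes were drawn only from genes with higher mean levels, so recovery of changes in genes with low values was not measured.

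The members and gene lists were chosen with earlier results of these data known. Named genes were the 10 lens genes, the other gamma crystallins, from each other list the called genes, the most abundant gene and defining markers at 0, genomic neighbours (the nearest listed gene on each side), and the 8 genes most correlated with the 10. Crybg1 and Crybg2 were matched as Aim1 and Aim1l. Motifs were searched on both strands of RefSeq promoter windows. Alternatives covered scaling, pseudocount, filter, failed estimates, variance, a replicate block and each library left out. Reads were not realigned, and the authors' comparisons were not used. Python 3.11.15, numpy 2.4.6, pandas 2.3.3 and matplotlib 3.10.9 were used.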

Additional observations from a re-analysis of the deposited data

How the results depend on the processing

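All 358 log2 differences of the 10 lens genes from Control under the alternatives were below 0. Calls lay between 9 and 10 of 10 in Mild IOP and between 8 and 9 of 10 in Moderate IOP, which is no sign of stability, as the genes were chosen on these contrasts. The sizes depended on the pseudocount: for Crygs −9.52 at 0.1 and −3.97 at 5, and for Lim2 −5.10 and −0.75. Of the other lens genes, Crygb and Crygc met the call criteria in Mild IOP, and with the variance taken from the compared groups only 1 did. Both passed the filter only through Control, and nothing is read from these counts. With no filter on low values, 1 other lens gene was lower in Moderate than in Mild IOP. The 1 genomic neighbour higher in Moderate than in Mild IOP became 0 with no scaling factor, upper-quartile factors, a pseudocount of 5, no filter on low values, variance from the compared groups only and the replicate block, and lay between 0 and 1 with 1 library left out. The causes were not tested. No other count of calls for the 10 lens genes, the other lens genes or the neighbours left its main value by over 1.5 times. Replicate numbers did not pair libraries (mean correlation of deviations 0.012 for the same number and −0.0062 for different numbers). Over all genes, calls lower in Mild IOP numbered 11 with variance from the compared groups only, 20 with no filter, 23 with the replicate block and 15 to 173 with 1 library left out, against 50. Calls in Moderate IOP against Control ranged from 28 to 124 lower (103) and from 33 to 160 higher (118), and those between Moderate and Mild IOP from 80 to 466 lower (306) and from 362 to 867 higher (756). Calls against Control also ended with other settings for Sag in Mild IOP (no filter, variance from the compared groups only, replicate block) and, in Moderate IOP, for Pde6b and Rlbp1 (no filter, variance from the compared groups only), Sncg (no scaling factor, no filter, replicate block) and Apoe (replicate block). A lens gene listed at 0 allows a level of up to 3 fragments, between 0.48 and 1.31 FPKM, counting error only.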
